A study of Mus musculus with 12 samples.

Results

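The collagen gene family was followed in the paw joints of mice with serum-transfer arthritis. Its members were taken by name: every protein-coding gene of the count table whose whole symbol reads Col, a number, a and a number. This gave 44 genes of 27 collagen types among 52636 gene identifiers, and all 44 such symbols of the GENCODE M21 annotation were present. The study compared 3 groups of 4 mice, and each library held total RNA from the joint tissue of 1 animal. Naive mice received anti-gp120, the control antibody, and no arthritogenic serum. The other 8 mice received serum of K/BxN mice, whose autoantibodies inflame the joints, and were sampled 7 days later. Of these, 4 mice were given the same anti-gp120 (called control 1 to 4 below) and 4 were given 6F2, an agonistic antibody to SIRPa (anti-SIRPa 1 to 4), an inhibitory receptor of myeloid cells. Strain, sex and age are not given in the labels. Libraries held 6893969 to 17597920 counts each. In such whole tissue, fewer cells of a type and less RNA per cell cannot be told apart.

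Collagen chains wind around each other in groups to form a rod, and the glycine at regular steps of each chain lets the rod pack. The fibrillar collagens build the cables that give bone, tendon, ligament and the joint capsule their strength, while FACIT collagens sit on the surface of those cables. Beaded-filament collagen VI links cells to the matrix, type IV forms the sheet of basement membranes, and types II, IX, X and XI belong to cartilage. The 44 genes comprised 8 fibrillar, 6 FACIT, 7 beaded-filament, 2 network, 9 basement membrane, 7 cartilage and 4 transmembrane collagens, and Col26a1, which was kept apart. Each gene was counted in a single class. Types II, IX, X and XI are therefore in the cartilage counts and medians only, not in those of the fibrillar or FACIT genes. None of the 44 was without counts, and 43 passed the filter on low counts. Col6a4, with 63 counts over the 12 libraries, did not.

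Tissue markers placed the libraries in a mixed joint sample. Summed fibroblast markers lay at 8211 to 11296 CPM (read counts scaled to a common library size with TMM factors) in naive, 6749 to 9084 in control and 7960 to 11738 in anti-SIRPa mice. Prg4 held most of this sum, at mean 8175, 6386 and 7816 CPM in the same order, so that it shows little of the other markers. Of the 10 fibroblast markers, 2 were called higher and 0 lower in control-antibody arthritis against naive. Skeletal muscle markers summed to 166137, 196837, 214525 and 294760 CPM in naive 1 to 4, 217597, 111907, 127337 and 169052 CPM in control 1 to 4, and 217976, 221925, 192864 and 110181 CPM in anti-SIRPa 1 to 4. Ttn held most of the muscle sum, at mean 138378, 106387 and 114812 CPM in naive, control and anti-SIRPa mice. Of 10 chondrocyte markers, Matn1, Matn3 and Snorc stayed below 1 CPM in all 12 libraries, and the list summed to 492 to 951 CPM. Several libraries stood apart. Control 1 lay inside the naive range for 10 of the 12 collagens that rose with arthritis, below it for 1 and above it for 1. Control 2 and control 4 held 530 and 227 CPM of summed smell and taste receptor genes, against 29.5 CPM in control 3 and 10.1 to 16.6 CPM in the rest. Naive 4 and anti-SIRPa 2 held 13.9 and 9.92 CPM of epidermal markers, against 331 to 17353 CPM elsewhere. The part of these libraries in the results was not tested beyond leaving them out.

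In control-antibody arthritis, 12 collagens were higher and 3 lower than in naive joints. These 15 were 34.9% of the 43 tested, while 10.3% of all 16674 genes tested passed the same threshold (5.87% higher, 4.45% lower; edgeR quasi-likelihood test, Benjamini-Hochberg adjusted p under 0.05). The median log2 fold change was 0.61 over the collagens and 0.03 over all genes. The genes that rose were the fibril-forming Col1a1, Col1a2, Col3a1, Col5a1 and Col5a2, the fibril-associated Col12a1, Col14a1, Col16a1 and Col19a1, and Col6a3, Col6a6 and Col8a2. Those that fell were the cartilage genes Col9a1 and Col10a1 and the FACIT gene Col20a1. Control 2, control 3 and control 4 each lay above every naive mouse for all 12 that rose. The 12 were picked by this same comparison, so that this describes the calls and is not separate support for them.

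With the anti-SIRPa antibody, 5 of those 12 were lower than in control-antibody arthritis: Col3a1, Col5a1, Col5a2, Col12a1 and Col16a1. Col10a1, which had fallen, was higher. These 6 were 14% of the 43 tested against 3.29% of all genes (1.59% higher, 1.7% lower), and the median log2 fold change was -0.68 over the collagens and -0.03 over all genes. Both comparisons use the same 4 control mice, so that a fall in the second is not independent of a rise in the first. Between anti-SIRPa and naive joints no collagen passed, nor did any of the 16674 genes (0% called by edgeR). At an unadjusted p under 0.05 there were 2 collagens, both higher, against 4.05% of all genes. The collagens' median was -0.09, and a missed threshold does not show that the levels were the same.

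DESeq2 on the same counts called more genes. It called 19 collagens higher and 4 lower against naive (9.21% and 8.21% of all genes), and 17 lower and 4 higher with anti-SIRPa (5.87% and 5.48%). Added to the edgeR calls were Col4a1, Col5a3, Col6a1, Col6a2, Col11a1, Col18a1 and Col27a1 higher and Col4a3 lower against naive. With anti-SIRPa, Col1a1, Col1a2, Col4a1, Col5a3, Col6a2, Col6a3, Col8a2, Col15a1, Col18a1, Col19a1, Col23a1 and Col27a1 were added as lower and Col9a1, Col11a2 and Col20a1 as higher. Between anti-SIRPa and naive joints it called 1 collagen, Col11a2, higher and none lower (0.108% and 0.012%; 0.12% of all genes in either direction).

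**Figure D1:**
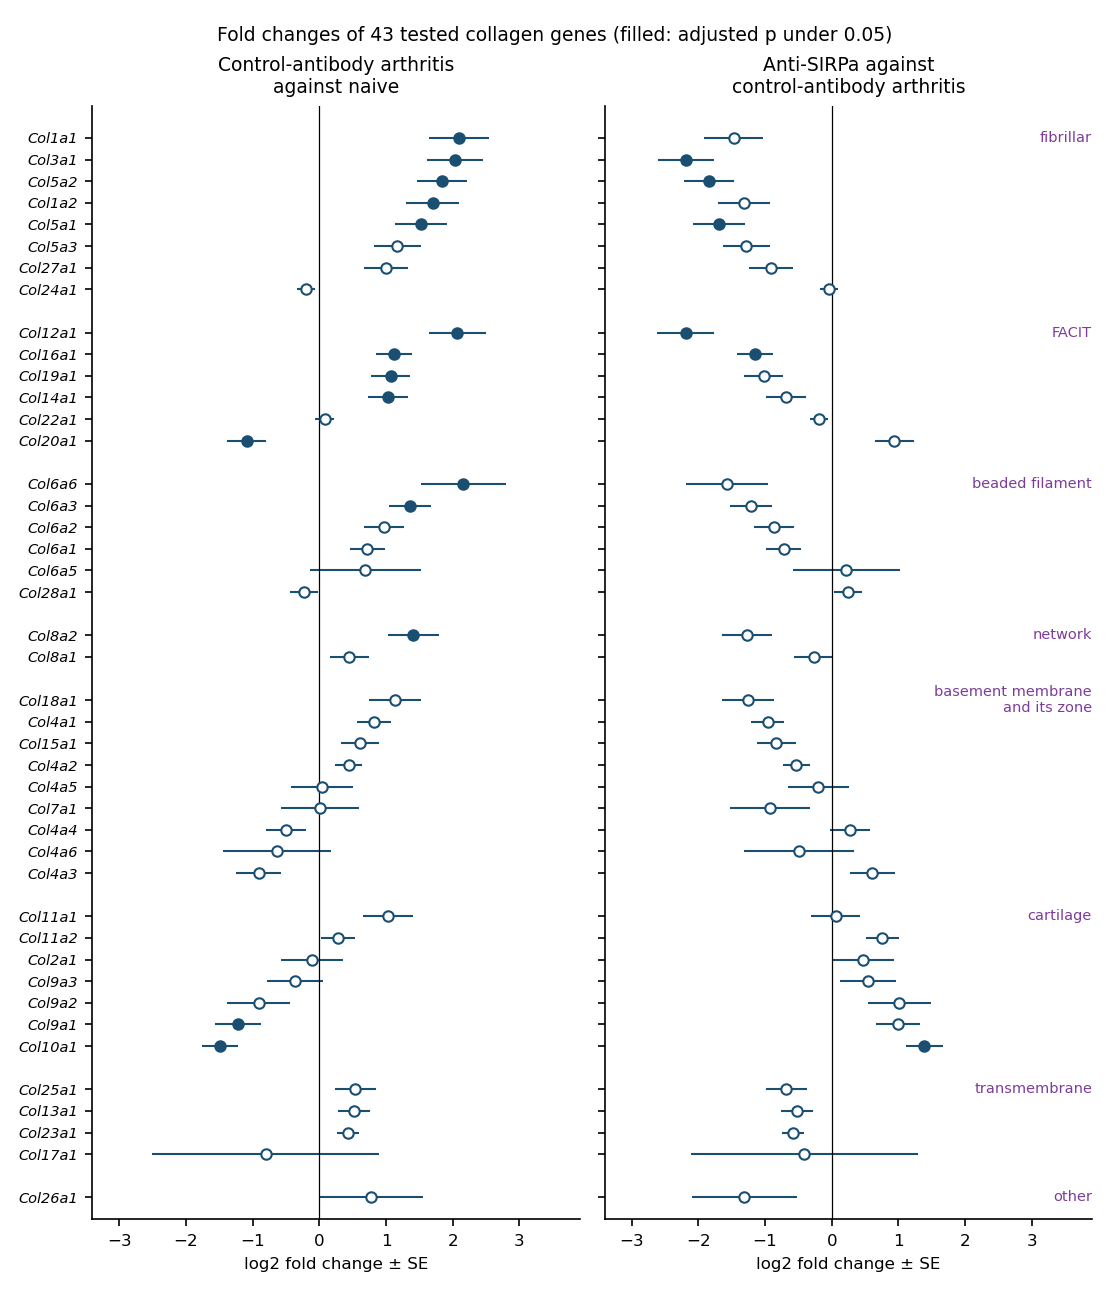
Log2 fold change with its SE (horizontal axis) for the 43 tested collagen genes by class, for control-antibody arthritis against naive (left) and for anti-SIRPa against control-antibody arthritis (right). Filled points passed an adjusted p of 0.05: 12 to the right and 3 to the left of 0 in the left panel, 5 to the left and 1 to the right in the right panel.

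These counts turned on single libraries. Without control 1, 23 collagens were higher and 4 lower in control-antibody arthritis (27.2% of all genes called), and 22 were lower and 4 higher with anti-SIRPa (23% of all genes called). Leaving out naive 1, naive 2, naive 3 or naive 4, or control 2, control 3 or control 4, removed 7 to 13 of the 15 calls against naive, and leaving out an anti-SIRPa mouse removed 2 to 5. Calls over all genes fell too, from 1721 to between 412 and 888 without such a naive or control mouse and to between 1248 and 1631 without an anti-SIRPa mouse. The adjusted p values of the lost calls were between 0.0501 and 0.138. Col10a1 and Col5a2 kept their call against naive in all 12 of these fits. All 6 calls with anti-SIRPa were lost when control 2, control 3, control 4, anti-SIRPa 1, anti-SIRPa 2 or anti-SIRPa 3 was left out, at adjusted p values between 0.0509 and 0.125, and 1 to 3 of them without a naive mouse or anti-SIRPa 4. In those 6 fits 48, 1, 1, 0, 0 and 144 of all genes were called, in the order given, against 548 with all mice. Without naive 4 and anti-SIRPa 2, the libraries almost free of epidermal markers, only Col10a1 was called against naive and nothing with anti-SIRPa. Without control 2 and control 4 no collagen was called in either comparison. For these pairs of mice the calls over all genes are not given here. No fold change of a called collagen changed sign in any fit that left out mice.

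Read as a share of all counts, collagens took 0.93, 1.01, 1.25 and 0.632% in naive 1 to 4. They took 0.921% in control 1 but 5.64, 3.84 and 3.29% in control 2, control 3 and control 4. In anti-SIRPa 1 to 4 the shares were 1.03, 1.08, 1.07 and 1.6%. The 95% Wilson intervals of these shares were at most 0.0344 percentage points wide and cover counting error only. Fibrillar collagens made up most of the family throughout: Col1a1, Col1a2 and Col3a1 alone held 56.9 to 77.9% of collagen counts, and the 3 highest values were those of control 2, control 3 and control 4. Beside these shares, the sum of muscle markers was highest in naive 4, which had the lowest collagen share of its group, and lowest in anti-SIRPa 4, which had the highest. Control 1 had the highest muscle sum and the lowest collagen share of the controls, and control 2 the reverse. Among naive 1, naive 2 and naive 3, a mouse with a higher muscle sum also had a higher collagen share. The part of muscle content in the collagen differences was not tested.

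**Figure D2:**
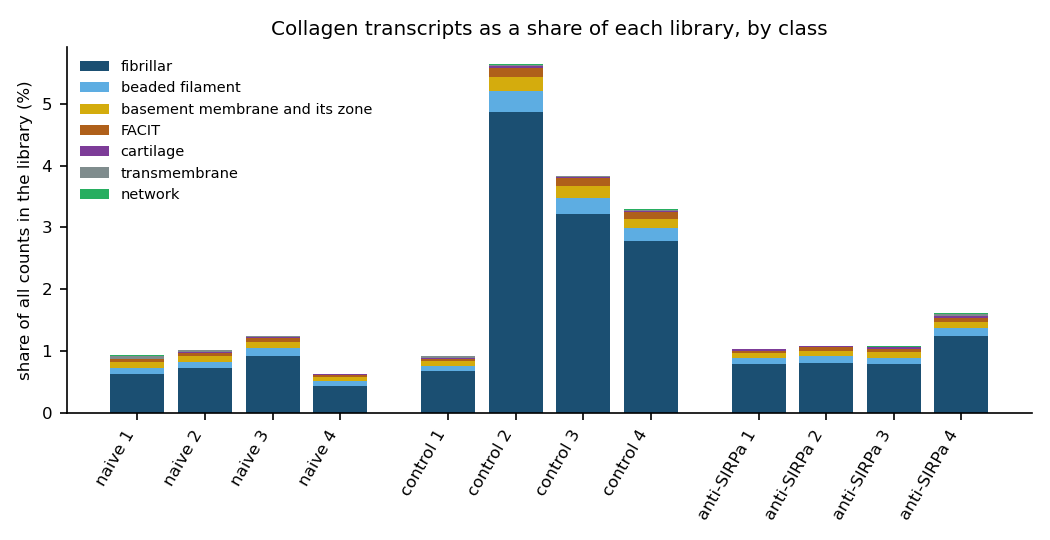
Share of all counts in each of the 12 libraries (vertical axis, percent) that fell on collagen genes, stacked by class; Col26a1 is too low to draw. Control 2, control 3 and control 4 reach 3.29 to 5.64%, and the other 9 libraries 0.632 to 1.6%.

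Per length, as CPM per kilobase of transcript, naive joints ranked Col1a1 first at 462 ± 165 (SD, n = 4), then Col1a2 at 319 ± 99.9 and Col3a1 at 311 ± 62.7. Within each naive mouse Col1a1 was the highest of the 3 per length: the ratio of Col1a1 to Col1a2 was 1.44 ± 0.0665 and that of Col3a1 to Col1a1 0.706 ± 0.142 (mean ± SD, n = 4). A wide step led down to Col6a2 at 75.6 ± 13.6 and Col6a1 at 74.9 ± 11.1, the chains that assemble with Col6a3 into collagen VI. Next came the basement membrane chains Col4a1 at 60.1 ± 8.17 and Col4a2 at 56.6 ± 7.59, followed by Col5a1, Col5a2 and Col6a3. Of these 10 most abundant collagens, 6 rose in control-antibody arthritis and 3 fell with anti-SIRPa. At the other end, 9 tested genes lay under 1 CPM per kilobase in naive joints, and 2 of them, Col19a1 and Col6a6, rose in arthritis. Over all genes tested, 5.87% were called higher against naive and 1.7% lower with anti-SIRPa. The part of the level itself in which genes were called was not tested.

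Of the 6 genes called in both comparisons, Col3a1, Col5a1, Col16a1 and Col10a1 have a promoter window in the RefSeq tables (build GRCm38.p6), and the 250 bases before each start are shown because these genes moved together, with Col10a1 opposite to the rest. Col5a2 and Col12a1 are named only. The windows lie at chr1:45311288-45311537 (Col3a1), chr2:27886175-27886424 (Col5a1), chr4:130047590-130047839 (Col16a1) and chr10:34389731-34389980 (Col10a1), all on the plus strand. Capitals mark matches, on either strand, to 6 motifs: the CCAAT box, the TATA box with the letters TATAAA, the GC box with GGGCGG, the AP-1 motif with TGANTCA, the RUNX motif with TGTGGT and the STAT motif with TTCCNGGAA.
Col3a1: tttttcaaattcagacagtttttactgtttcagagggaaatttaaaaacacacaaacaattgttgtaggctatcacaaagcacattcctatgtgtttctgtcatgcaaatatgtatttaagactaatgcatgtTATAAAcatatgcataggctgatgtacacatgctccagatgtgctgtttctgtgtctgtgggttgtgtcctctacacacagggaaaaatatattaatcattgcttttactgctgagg
Col5a1: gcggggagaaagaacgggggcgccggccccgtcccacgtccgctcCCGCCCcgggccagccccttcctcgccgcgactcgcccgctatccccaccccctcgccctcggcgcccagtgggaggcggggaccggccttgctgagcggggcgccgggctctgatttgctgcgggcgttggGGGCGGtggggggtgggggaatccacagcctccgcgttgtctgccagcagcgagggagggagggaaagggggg
Col16a1: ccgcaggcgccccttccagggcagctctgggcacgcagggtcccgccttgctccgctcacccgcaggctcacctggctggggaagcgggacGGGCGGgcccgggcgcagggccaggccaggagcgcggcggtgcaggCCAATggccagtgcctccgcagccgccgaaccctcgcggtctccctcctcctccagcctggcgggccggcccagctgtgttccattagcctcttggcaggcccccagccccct
Col10a1: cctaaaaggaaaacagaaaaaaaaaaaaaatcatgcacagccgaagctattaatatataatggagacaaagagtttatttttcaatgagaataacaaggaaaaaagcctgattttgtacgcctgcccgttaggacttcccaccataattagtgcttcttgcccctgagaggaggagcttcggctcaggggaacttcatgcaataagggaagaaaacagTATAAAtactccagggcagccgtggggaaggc
The 4 windows differed in composition. Col3a1 and Col10a1 were 35.2 and 41.6% G and C with a TATA box, whose first base lay 117 and 32 bases before the start. Col5a1 and Col16a1 were 76.4 and 75.6% G and C with GC boxes and no TATA box, and Col16a1 also held CCAAT. The median over 32851 promoters was 52.4%. Over the 38 windows of 35 collagen genes, a GC box was found in 57.9%, against 32.7% of all promoters. CCAAT stood in 34.2% against 33.8%, the TATA box in 13.2% against 12.4%, the RUNX letters in 7.89% against 14%, the AP-1 letters in 2.63% against 6.75%, and the STAT letters in 0% against 0.913%. These are letter matches within 250 bases, not sites of binding.

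The fibrillar genes were the class with the highest median change: 5 of 8 rose in control-antibody arthritis (median log2 fold change 1.61), and 3 fell with anti-SIRPa (median -1.40). Col3a1 (chromosome 1), whose product forms the fine, stretchable fibrils of healing and vascular tissue, stood at 1577, 1653, 2237 and 1450 CPM in naive 1 to 4, 1712, 11139, 8977 and 6344 CPM in control 1 to 4, and 1274, 1619, 1497 and 1815 CPM in anti-SIRPa 1 to 4. Control 2, control 3 and control 4 were far above all other mice, and control 1 was among the naive values. The log2 fold change was 2.03 ± 0.42 (SE) against naive (edgeR adjusted p = 0.0146) and -2.18 ± 0.42 with anti-SIRPa (edgeR adjusted p = 0.0271). Among the 12 fits that leave out 1 mouse, the call against naive was lost without naive 4 (edgeR adjusted p = 0.0517) and the call with anti-SIRPa in 6 (up to 0.0952). The call against naive was also lost with only the 2 groups compared (edgeR adjusted p = 0.0531).

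Col1a1 and Col1a2 encode the chains of collagen I, the main collagen of bone, tendon and skin. Col1a1 (chromosome 11) stood at 2267, 2967, 3997 and 1734 CPM in naive 1 to 4, 2927, 19663, 11860 and 12322 CPM in control 1 to 4, and 3956, 3886, 3562 and 5437 CPM in anti-SIRPa 1 to 4. Col1a2 (chromosome 6) stood at 1495, 1833, 2374 and 1115 CPM in naive 1 to 4, 1657, 8961, 5674 and 5821 CPM in control 1 to 4, and 2016, 2057, 1949 and 2812 CPM in anti-SIRPa 1 to 4. Against naive they rose by 2.09 ± 0.45 and 1.70 ± 0.40 on the log2 scale (edgeR adjusted p = 0.0165 and 0.0218). With anti-SIRPa the log2 differences were -1.47 ± 0.44 and -1.32 ± 0.39, which did not pass (edgeR adjusted p = 0.072 and 0.0712). Every anti-SIRPa mouse stayed below control 2, control 3 and control 4 for both genes, and above control 1. Among the 12 fits that leave out 1 mouse, the Col1a1 call against naive was lost without naive 4 (edgeR adjusted p = 0.0556) and that of Col1a2 in 6 (up to 0.0698). The Col1a1 call was also lost with only the 2 groups compared (edgeR adjusted p = 0.057) and without a filter (0.0559).

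Collagen V, encoded in part by Col5a1 and Col5a2, sits inside collagen I fibrils and limits their width. Col5a1 (chromosome 2) stood at 398, 411, 560 and 440 CPM in naive 1 to 4, 349, 2074, 1636 and 1112 CPM in control 1 to 4, and 385, 421, 374 and 423 CPM in anti-SIRPa 1 to 4. Col5a2 (chromosome 1) stood at 299, 298, 432 and 302 CPM in naive 1 to 4, 349, 1790, 1506 and 1110 CPM in control 1 to 4, and 318, 331, 315 and 367 CPM in anti-SIRPa 1 to 4. For both genes the anti-SIRPa mice lay within or beside the naive range, and control 2, control 3 and control 4 above it. The log2 fold changes against naive were 1.52 ± 0.39 and 1.84 ± 0.37 (edgeR adjusted p = 0.0311 and 0.0137). With anti-SIRPa they fell by 1.69 ± 0.39 and 1.84 ± 0.37 (edgeR adjusted p = 0.0403 and 0.0302). Among the 12 fits that leave out 1 mouse, these calls with anti-SIRPa were lost in 11 and 6 (up to 0.12 and 0.0987). Col5a2 kept its call against naive in all 12 fits without 1 mouse (edgeR adjusted p up to 0.0496), whereas Col5a1 lost it in 7 (up to 0.0916). Both genes lost this call with only the 2 groups compared, without naive 4 and anti-SIRPa 2, and without control 2 and control 4. Col5a1 shares 99 exon bases with an antisense gene, 2810430I11Rik, which had 159 counts in all. The remaining fibrillar genes, Col5a3, Col24a1 and Col27a1, did not pass in edgeR. Col5a3 and Col27a1 had log2 fold changes of 1.17 ± 0.35 and 1.00 ± 0.33 against naive, and Col24a1 had -0.20 ± 0.13 with all 12 mice between 16.1 and 25.2 CPM.

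Among the FACIT genes 4 of 6 rose and 1 fell in control-antibody arthritis (median 1.05), and 2 fell with anti-SIRPa (median -0.85). Col12a1 (chromosome 9), a long collagen of tendon and ligament surfaces, stood at 116, 109, 133 and 69.9 CPM in naive 1 to 4, 119, 651, 621 and 402 CPM in control 1 to 4, and 79.9, 92.3, 112 and 108 CPM in anti-SIRPa 1 to 4. All 4 anti-SIRPa mice lay below all 4 controls. Its log2 fold change was 2.07 ± 0.43 against naive (edgeR adjusted p = 0.0175) and -2.19 ± 0.43 with anti-SIRPa (edgeR adjusted p = 0.0314), the most negative value in that comparison among the 43. The call against naive was lost without naive 4, control 2 or control 3 (edgeR adjusted p up to 0.0582). The call with anti-SIRPa was lost in 8 of 12 fits without 1 mouse (edgeR adjusted p up to 0.102).

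Col16a1 (chromosome 4) stood at 76.3, 73.2, 88.7 and 52.5 CPM in naive 1 to 4, 74.9, 235, 153 and 169 CPM in control 1 to 4, and 63.3, 67.9, 71.8 and 82.6 CPM in anti-SIRPa 1 to 4. It rose by 1.12 ± 0.27 on the log2 scale (edgeR adjusted p = 0.0257) and fell by 1.15 ± 0.27 with anti-SIRPa (edgeR adjusted p = 0.0432). Control 1 again lay at the naive level. Col14a1 (chromosome 15), known from dense connective tissue, stood at 77.9, 81.8, 89.5 and 53.7 CPM in naive 1 to 4, 61, 197, 166 and 196 CPM in control 1 to 4, and 86.4, 112, 90.9 and 96.9 CPM in anti-SIRPa 1 to 4. The log2 fold change was 1.03 ± 0.30 against naive (edgeR adjusted p = 0.047) and -0.68 ± 0.30 with anti-SIRPa (edgeR adjusted p = 0.183). In 11 of 12 fits without 1 mouse the Col14a1 call against naive was lost (up to 0.135), and in 6 of 12 that of Col16a1 (up to 0.0798). The Col16a1 call with anti-SIRPa was lost in 10 of 12 (up to 0.125).

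Col19a1 and Col20a1 moved in opposite directions at low levels. Col19a1 (chromosome 1) stood at 1.95, 2.88, 3.37 and 2.68 CPM in naive 1 to 4, 5.46, 4.07, 7.48 and 5.85 CPM in control 1 to 4, and 2.88, 3.48, 3.39 and 1.59 CPM in anti-SIRPa 1 to 4. Here control 1 was high with the other controls, so that the 4 controls did not overlap with either group. Col20a1 (chromosome 2) stood at 8.22, 8.57, 8.51 and 13 CPM in naive 1 to 4, 7.53, 3.55, 4.31 and 2.53 CPM in control 1 to 4, and 8.7, 9.79, 9.17 and 6.79 CPM in anti-SIRPa 1 to 4, and all 4 controls lay below all 4 naive mice. The log2 fold changes against naive were 1.07 ± 0.29 and -1.09 ± 0.29 (edgeR adjusted p = 0.036 and 0.034). With anti-SIRPa they were -1.02 ± 0.29 and 0.94 ± 0.29, short of the threshold (edgeR adjusted p = 0.0649 and 0.0792). Each lost its call against naive in 7 of 12 fits without 1 mouse (up to 0.115 and 0.0996). Col20a1 shares 79 exon bases with BX649560.1 on the same strand, which had 1116 counts against 1305 for Col20a1, so that some of its reads may be assigned to either. Col22a1 (chromosome 15), found where muscle meets tendon, was the most even of the class at 190, 231, 281 and 253 CPM in naive 1 to 4, 244, 272, 221 and 270 CPM in control 1 to 4, and 199, 241, 250 and 190 CPM in anti-SIRPa 1 to 4. All groups overlapped, with log2 fold changes of 0.08 ± 0.14 and -0.19 ± 0.14.

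Over the whole family, the groups did not overlap for 4 of 43 genes between control-antibody and naive joints: Col19a1 and Col23a1 higher, Col10a1 and Col20a1 lower (6.02% and 6.47% of all genes, 12.5% in all). Between anti-SIRPa and control joints there were also 4, Col12a1, Col19a1 and Col23a1 lower and Col10a1 higher (4.82% and 5.18% of all genes, 10% in all). For anti-SIRPa and naive joints there were 2, Col11a1 and Col11a2, both higher (3.04% of all genes; 4.89% in either direction).

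**Figure D3:**
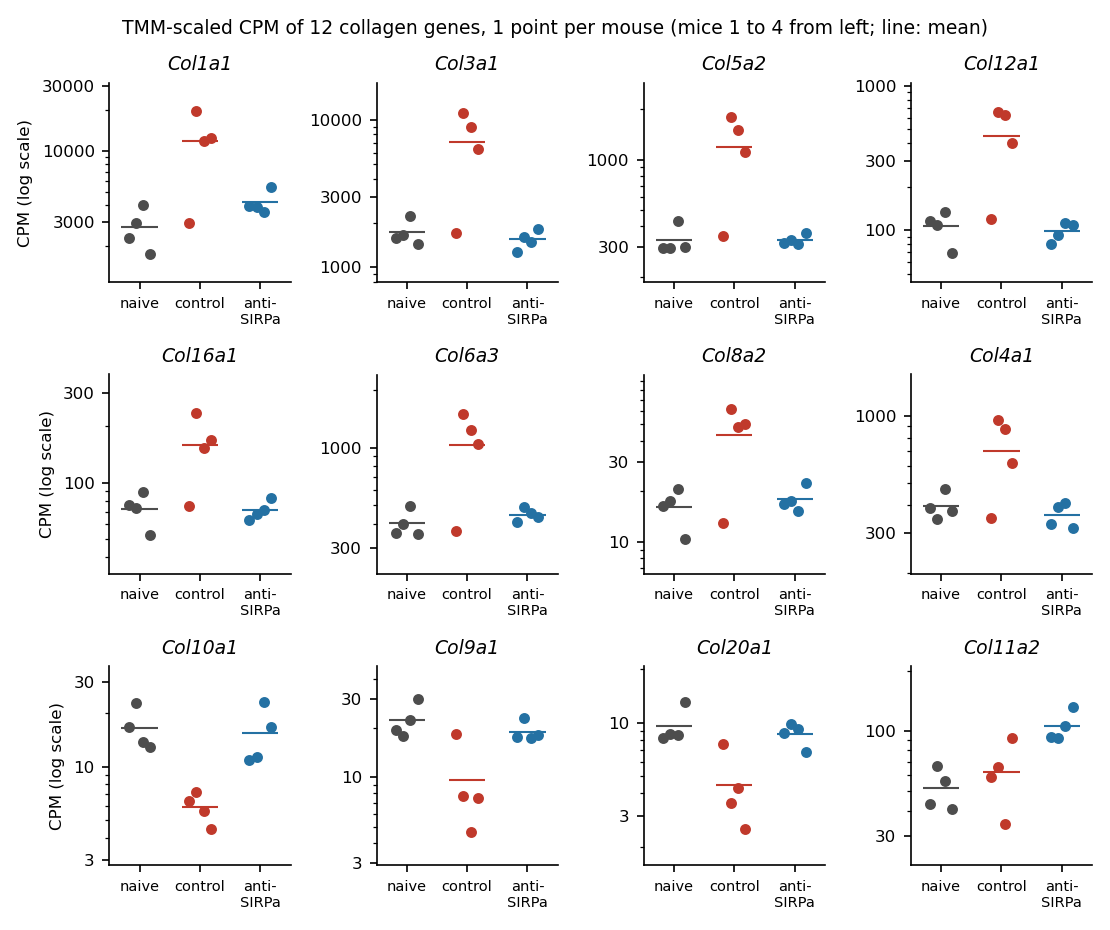
TMM-scaled CPM (vertical axes, log scale) of 12 collagen genes in each mouse, with the mean of 4 as a line. In the first 2 rows control 1 lies with the naive mice and the other 3 controls above them, for example 349 against 1110 to 1790 CPM for Col5a2; in the last row Col10a1 is at 4.48 to 7.22 CPM in all 4 controls and at 10.9 CPM or more elsewhere.

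Of the beaded-filament genes, 2 of 6 tested rose in control-antibody arthritis and none passed with anti-SIRPa. Collagen VI is built of Col6a1, Col6a2 and a longer chain such as Col6a3, and forms the fine network around joint, muscle and fat cells. Col6a3 (chromosome 1) stood at 361, 399, 497 and 354 CPM in naive 1 to 4, 369, 1499, 1230 and 1039 CPM in control 1 to 4, and 409, 488, 459 and 433 CPM in anti-SIRPa 1 to 4. It rose by 1.36 ± 0.31 (edgeR adjusted p = 0.0203), and its log2 fold change with anti-SIRPa was -1.21 ± 0.31 (edgeR adjusted p = 0.051). Col6a1 (chromosome 10) stood at 287, 306, 371 and 265 CPM in naive 1 to 4, 223, 729, 569 and 506 CPM in control 1 to 4, and 317, 319, 263 and 330 CPM in anti-SIRPa 1 to 4. Col6a2, its neighbour on the same chromosome, stood at 275, 282, 378 and 259 CPM in naive 1 to 4, 227, 880, 668 and 557 CPM in control 1 to 4, and 334, 339, 285 and 318 CPM in anti-SIRPa 1 to 4. Both were highest in control 2, control 3 and control 4 and did not pass in edgeR: the log2 fold changes were 0.72 ± 0.26 and 0.97 ± 0.30 against naive (edgeR adjusted p = 0.0933 and 0.0569). Col6a3 lost its call in 6 of 12 fits without 1 mouse (up to 0.0673).

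The other long chains of collagen VI lie in tandem on chromosome 9 and were scarce. Col6a6 stood at 0.67, 0.421, 0.984 and 1.15 CPM in naive 1 to 4, 0.662, 6.7, 1.44 and 5.78 CPM in control 1 to 4, and 1.06, 1.67, 1.44 and 0.679 CPM in anti-SIRPa 1 to 4. Its rise of 2.16 ± 0.64 (edgeR adjusted p = 0.0469) had its highest values in control 2 and control 4, the libraries with the most smell and taste receptor counts, and was lost in 11 of 12 fits without 1 mouse (up to 0.138). Col6a4, which was not tested, had 31 counts in control 2, 13 in control 4, 9 in control 3, 6 in control 1 and at most 1 in each other library. The part of the receptor signal in these values was not tested. Col6a5 ranged from 0.248 to 4.35 CPM, with its highest values in anti-SIRPa 1 and control 2. Col28a1 (chromosome 6) was even, at 5.24, 7.94, 9.28 and 8.74 CPM in naive 1 to 4, 8.35, 6.04, 5.67 and 6.5 CPM in control 1 to 4, and 6.29, 8.82, 8.66 and 7.93 CPM in anti-SIRPa 1 to 4, with log2 fold changes of -0.23 ± 0.21 and 0.25 ± 0.21.

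The network class holds the chains of collagen VIII, which forms lattices beneath endothelium and cornea. Col8a2 (chromosome 4) stood at 16.4, 17.5, 20.5 and 10.4 CPM in naive 1 to 4, 12.9, 61.7, 47.9 and 50.3 CPM in control 1 to 4, and 16.8, 17.5, 15.2 and 22.3 CPM in anti-SIRPa 1 to 4. It rose by 1.41 ± 0.38 (edgeR adjusted p = 0.0406) and had a log2 fold change of -1.27 ± 0.38 with anti-SIRPa (edgeR adjusted p = 0.0789). Control 1 was the lowest of its group by far. Col8a1 (chromosome 16) stood at 22.5, 24.4, 26.3 and 14 CPM in naive 1 to 4, 13.5, 42.4, 37.5 and 26.4 CPM in control 1 to 4, and 22.6, 22.7, 28.9 and 24.7 CPM in anti-SIRPa 1 to 4 and did not pass, with 0.45 ± 0.29 and -0.27 ± 0.29 (edgeR adjusted p = 0.33 and 0.605). The Col8a2 call was lost in 10 of 12 fits without 1 mouse (up to 0.112).

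None of the 9 genes of basement membranes and their zone passed in edgeR in any comparison; their median log2 fold change was 0.04 against naive and -0.53 with anti-SIRPa. Col4a1 and Col4a2 (chromosome 8), the chains of the common basement membrane network, were nearest. Col4a1 stood at 390, 348, 474 and 377 CPM in naive 1 to 4, 352, 957, 877 and 618 CPM in control 1 to 4, and 328, 394, 407 and 317 CPM in anti-SIRPa 1 to 4. Col4a2 stood at 335, 332, 437 and 357 CPM in naive 1 to 4, 299, 631, 582 and 470 CPM in control 1 to 4, and 324, 374, 354 and 324 CPM in anti-SIRPa 1 to 4. Control 2, control 3 and control 4 lay above all naive mice for both. For Col4a1 the log2 fold changes were 0.82 ± 0.25 and -0.96 ± 0.25 (edgeR adjusted p = 0.0512 and 0.0515; DESeq2 0.0125 and 0.00411), just outside the threshold in edgeR, and for Col4a2 0.44 ± 0.20 and -0.53 ± 0.20. Without control 1 Col4a1, Col4a2, Col15a1 and Col18a1 rose against naive and fell with anti-SIRPa, with Col4a1 at 1.03 ± 0.17 against naive (edgeR adjusted p = 0.000453). Of the fits that leave out 1 mouse, this one had the most calls over all genes. It called 27.2% of all genes against naive and 23% with anti-SIRPa, where the fit with all mice called 10.3% and 3.29%.

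Col15a1 (chromosome 4) and Col18a1 (chromosome 10) are close relatives that anchor basement membranes to the fibres beneath. Col15a1 stood at 68.5, 74.9, 101 and 60.1 CPM in naive 1 to 4, 50.9, 165, 146 and 104 CPM in control 1 to 4, and 55.1, 71.5, 61.1 and 74.1 CPM in anti-SIRPa 1 to 4. Col18a1, the source of endostatin, stood at 89.4, 64.9, 76 and 40.9 CPM in naive 1 to 4, 52.1, 203, 214 and 130 CPM in control 1 to 4, and 48, 54.2, 66.6 and 81.6 CPM in anti-SIRPa 1 to 4. The log2 fold changes against naive were 0.61 ± 0.29 and 1.14 ± 0.39 (edgeR adjusted p = 0.193 and 0.0849). Of the chains with narrow tissue range, Col4a3 and Col4a4 had log2 fold changes of -0.91 ± 0.34 and -0.50 ± 0.30, below 0 while Col4a1 and Col4a2 were above it. Col4a3 lay at 1.66 to 2.89 CPM in control 2, control 3 and control 4 and at 3.82 to 6.25 CPM in the other 9 libraries. It shares 563 exon bases with the antisense gene C430014B12Rik, which had 85 counts against 736 for Col4a3.

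The cartilage class had a median below 0 in control-antibody arthritis. Of its 7 genes, 2 fell in control-antibody arthritis (median -0.37) and 1 rose with anti-SIRPa, where all 7 log2 fold changes were above 0 (median 0.76). Col10a1 (chromosome 10), the collagen of hypertrophic cartilage in growth plates and mineralising zones, stood at 16.8, 23, 13.8 and 13 CPM in naive 1 to 4, 6.45, 7.22, 5.67 and 4.48 CPM in control 1 to 4, and 10.9, 11.4, 23.1 and 16.7 CPM in anti-SIRPa 1 to 4. All 4 controls lay below all other mice, control 1 included. The log2 fold change was -1.49 ± 0.27 against naive (edgeR adjusted p = 0.00964), 1.39 ± 0.27 with anti-SIRPa (edgeR adjusted p = 0.0265) and -0.10 ± 0.25 between anti-SIRPa and naive. Its call against naive held in all 12 fits without 1 mouse (up to 0.0364), and that with anti-SIRPa was lost in 6 (up to 0.0832). Col10a1 shares 18 exon bases with Nt5dc1 on the opposite strand.

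Col9a1 (chromosome 1), a chain of the collagen that coats cartilage fibrils, stood at 19.4, 17.9, 22.3 and 29.9 CPM in naive 1 to 4, 18.4, 7.75, 4.68 and 7.51 CPM in control 1 to 4, and 17.6, 23.1, 17.3 and 18.2 CPM in anti-SIRPa 1 to 4. Control 1 lay with the naive mice and the other 3 controls below every one of them. It fell by 1.22 ± 0.34 against naive (edgeR adjusted p = 0.0401, lost in 10 of 12 fits without 1 mouse, up to 0.113) and had a log2 fold change of 0.99 ± 0.33 with anti-SIRPa (edgeR adjusted p = 0.104). Col2a1 (chromosome 15), the main cartilage collagen, stood at 18.6, 19.3, 17.9 and 8.81 CPM in naive 1 to 4, 7.03, 30.5, 9.14 and 13.8 CPM in control 1 to 4, and 12.5, 16.9, 35.2 and 18.5 CPM in anti-SIRPa 1 to 4. The groups overlapped widely, with log2 fold changes of -0.11 ± 0.47 and 0.47 ± 0.47. Col9a2 and Col9a3 were scarce, between 0.505 and 5.85 CPM, and did not pass. Chondrocyte markers moved unevenly beside these genes: Acan rose in control-antibody arthritis, from 44.9 ± 5.66 to 127 ± 69.8 CPM (mean ± SD, n = 4), while Chad fell by 1.33 ± 0.28 and rose by 1.16 ± 0.28 with anti-SIRPa, the only calls among 7 tested markers.

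Collagen XI nucleates cartilage fibrils and is also made by bone and tendon cells. Col11a2 (chromosome 17) stood at 42.9, 66.8, 56.2 and 40.8 CPM in naive 1 to 4, 58.7, 65.7, 34.2 and 91.8 CPM in control 1 to 4, and 93.7, 91.8, 106 and 132 CPM in anti-SIRPa 1 to 4. Col11a1 (chromosome 3) stood at 37, 54.6, 53.1 and 24.4 CPM in naive 1 to 4, 38.8, 132, 68.2 and 107 CPM in control 1 to 4, and 91.8, 76.8, 67.5 and 124 CPM in anti-SIRPa 1 to 4. These were the 2 collagens of 43 without overlap between anti-SIRPa and naive joints, each anti-SIRPa mouse being higher than each naive mouse. Over all genes tested, 4.89% did not overlap in this comparison, 3.04% being higher, so the pair does not set the family apart. For Col11a2 the log2 fold change was 1.03 ± 0.26 (edgeR adjusted p = 0.991; DESeq2 adjusted p = 0.0495), and for Col11a1 1.09 ± 0.37, neither passing in edgeR. Against naive, control joints differed by 0.28 ± 0.25 and 1.03 ± 0.37 for Col11a2 and Col11a1. Osteoblast markers summed to 90.8 to 148 CPM in naive, 144 to 198 in anti-SIRPa and 118, 372, 249 and 325 CPM in control 1 to 4. Of the 10 osteoblast markers 1 was called in each comparison: Ibsp rose in control-antibody arthritis, and Phex was higher with anti-SIRPa. Their medians were 0.06 and 0.11, and the markers did not move together: Phex had a log2 fold change of -0.49 against naive, and Ibsp -1.35 with anti-SIRPa (edgeR adjusted p = 0.368 and 0.074). Their part in the Col11a1 and Col11a2 levels was not tested.

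None of the 4 transmembrane collagens passed in edgeR. Col23a1 (chromosome 11) stood at 20.7, 24, 21.4 and 20.4 CPM in naive 1 to 4, 28, 34.9, 24.2 and 29.8 CPM in control 1 to 4, and 20, 21.8, 22.9 and 13.5 CPM in anti-SIRPa 1 to 4, and its 4 controls lay above all mice of both other groups at a small difference of 0.43 ± 0.16 against naive and -0.58 ± 0.16 with anti-SIRPa (edgeR adjusted p = 0.103 and 0.0637). Col13a1 (chromosome 10), a collagen of the nerve-muscle junction, stood at 9.31, 8.64, 9.56 and 8.28 CPM in naive 1 to 4, 10.1, 17.9, 9.52 and 14.2 CPM in control 1 to 4, and 9.05, 8.37, 12.5 and 5.94 CPM in anti-SIRPa 1 to 4. Col25a1 (chromosome 3) stood at 2.5, 3.86, 2.32 and 3.68 CPM in naive 1 to 4, 3.06, 5.65, 3.4 and 5.92 CPM in control 1 to 4, and 2.06, 2.45, 4.19 and 2.55 CPM in anti-SIRPa 1 to 4. Their groups overlapped. Col26a1, outside these classes, was at 1.65 CPM or less in every library and did not pass.

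Col17a1 (chromosome 19), which rivets the epidermis to its basement membrane, varied more within groups than between them. It stood at 461, 227, 187 and 0.0766 CPM in naive 1 to 4, 258, 56.9, 92 and 97.1 CPM in control 1 to 4, and 16.7, 0.0644, 33.2 and 328 CPM in anti-SIRPa 1 to 4. The 2 libraries nearly without it, naive 4 and anti-SIRPa 2, were those nearly without epidermal markers. Col7a1, the anchoring fibril of skin, and the chains Col4a5 and Col4a6, chosen here after their values were seen, were also low in these mice. Col4a6 stood at 0.843 CPM in naive 4 and 0.322 CPM in anti-SIRPa 2, against 1.29 to 7.79 CPM elsewhere. Col7a1 stood at 7.59 and 5.99 CPM there but also at 7.99 and 7.72 CPM in anti-SIRPa 1 and 3, and Col4a5 at 3.91 and 5.28 CPM, with 4.58 CPM in anti-SIRPa 1. The SE of the Col17a1 log2 fold change against naive was 1.70, the widest in the family. Epidermal markers differed between libraries of 1 group, and their part in the group differences of these 4 genes was not tested.

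**Figure D4:**
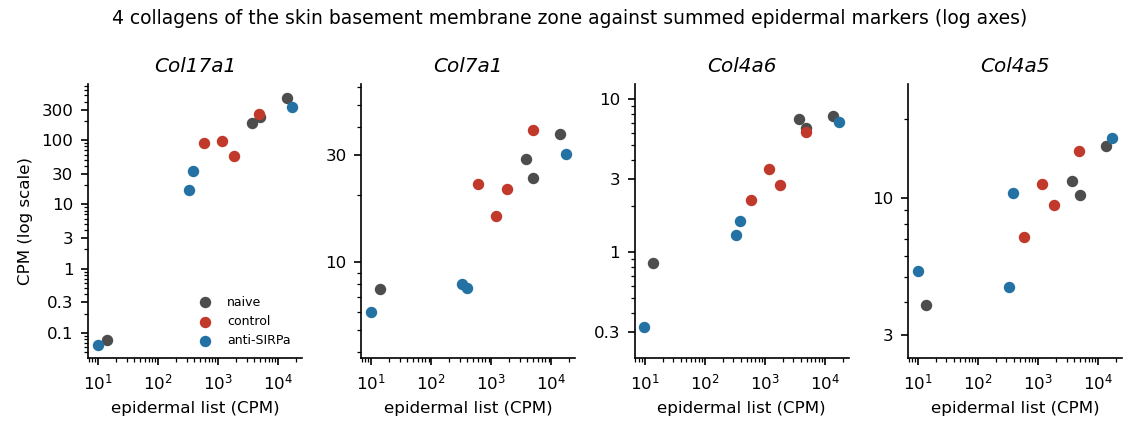
CPM of Col17a1, Col7a1, Col4a6 and Col4a5 (vertical axes, log scale) against the summed CPM of 10 epidermal markers (horizontal axes, log scale), 1 point per library in the colour of its group. Naive 4 and anti-SIRPa 2 sit at the left, with Col17a1 at 0.0766 and 0.0644 CPM against 16.7 to 461 CPM in the other 10 libraries.

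The balance between chains was read as ratios of counts within a library, which do not depend on library scaling; 11 ratios were formed after the values were seen and are given without a test. Col3a1 to Col1a1 was 0.696, 0.557, 0.56 and 0.836 in naive 1 to 4 and 0.585, 0.566, 0.757 and 0.515 in control 1 to 4. In anti-SIRPa 1 to 4 it was 0.322, 0.417, 0.42 and 0.334, below all 8 other mice. Beside this ratio, the log2 difference between anti-SIRPa and naive joints was 0.62 ± 0.43 for Col1a1 and -0.16 ± 0.40 for Col3a1, neither passing. Col1a1 to Col1a2, the chains of collagen I, was 1.52 to 1.68 in naive, 1.77 to 2.19 in control and 1.83 to 1.96 in anti-SIRPa mice, so both arthritic groups lay above the naive one. Here control 1, at 1.77, was above every naive mouse although its collagen I level was not.

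Col5a2 to Col5a1 followed the same order, at 0.686 to 0.772 in naive, 0.863 to 1 in control and 0.786 to 0.868 in anti-SIRPa mice. Col4a1 to Col4a2 was 1.05 to 1.16 in naive, 1.18 to 1.52 in control and 0.979 to 1.15 in anti-SIRPa mice, so the controls stood alone. For Col6a3 to Col6a1 the ranges were 1.26 to 1.34, 1.65 to 2.16 and 1.29 to 1.74, with controls above naive. Col5a1 to Col11a1 was 3.42 to 5.54 in anti-SIRPa mice and 7.52 or more in all others. Col3a1 to Col5a2, Col6a2 to Col6a1, Col11a1 to Col11a2 and Col2a1 to Col9a1 overlapped between all groups.

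**Figure D5:**
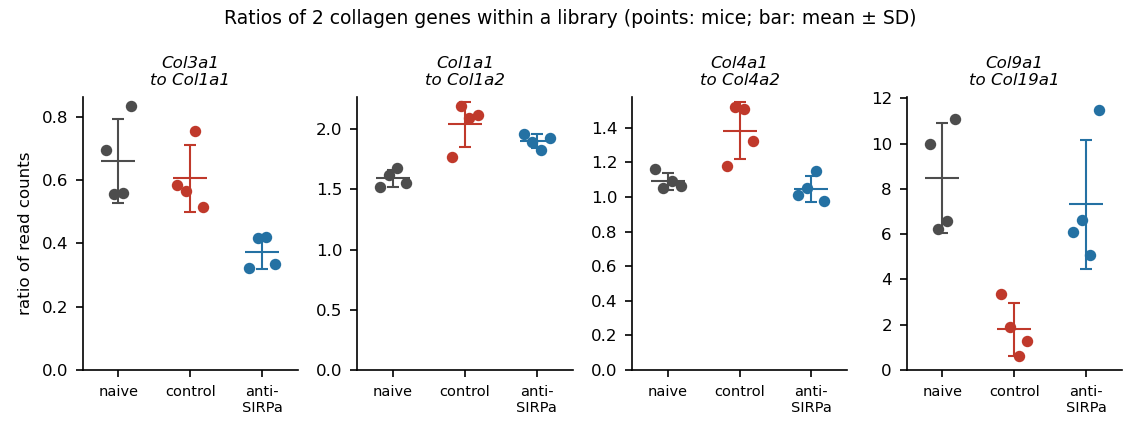
Ratio of the read counts of 2 collagen genes within each library (vertical axes), by group; points are mice, and bars give mean and SD of 4. Col3a1 to Col1a1 is lowest in the 4 anti-SIRPa mice (0.322 to 0.42), Col1a1 to Col1a2 is lowest in the 4 naive mice (1.52 to 1.68), and Col9a1 to Col19a1 is lowest in the 4 controls (0.626 to 3.38).

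Several collagens are neighbours on their chromosome, and neighbours did not always move alike. Col9a1 (chr1:24177610-24252684) and Col19a1 (chr1:24261890-24587472) lie tail to tail 9.21 kb apart, yet the first fell and the second rose in control-antibody arthritis. Their count ratio was 9.97, 6.22, 6.6 and 11.1 in naive, 3.38, 1.9, 0.626 and 1.28 in control and 6.1, 6.63, 5.09 and 11.5 in anti-SIRPa mice, with the controls below both other groups. Col3a1 (chr1:45311538-45349706) and Col5a2 (chr1:45374321-45503282) lie tail to tail 24.6 kb apart and both rose, then fell with anti-SIRPa. Col4a1 and Col4a2 start head to head with 22 shared bases, and Col4a3 and Col4a4 head to head 71 bases apart. Within each of these pairs, and for Col6a1 and Col6a2, the signs were alike. For Col4a6 and Col4a5, head to head 1.31 kb apart, the log2 fold changes against naive were -0.63 and 0.04, and for Col6a6 and Col6a5, in tandem, they were -1.57 and 0.22 with anti-SIRPa; none of these 4 values passed.

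The longest unbroken run of glycine codons (GGN) in steps of 3 codons was read from the coding sequences of GENCODE M21. It does not measure the whole helix, whose repeat can be split into several runs. Col4a1 had a longest run of 40 steps, yet 77.3% of its codons lay in 20 runs of at least 8 steps. The run held 337 to 344 steps in 9 genes, namely Col1a1, Col1a2, Col2a1, Col3a1, Col5a1, Col5a2, Col5a3, Col11a1 and Col11a2. Of these 9, 5 rose in control-antibody arthritis and 3 fell with anti-SIRPa, all of them fibrillar genes already counted above. Over all genes tested, 5.87% were called higher and 4.45% lower against naive, and 1.59% and 1.7% with anti-SIRPa. Of 6 genes with runs of 113 to 217 steps, none rose and 1 fell against naive. Of 28 tested genes with runs under 100 steps, 7 rose and 2 fell, and with anti-SIRPa 1 was higher and 2 lower. Col12a1 moved as far as Col3a1 with a longest run of 32 steps and 7.6% of its codons in runs of at least 8 steps. A long unbroken run was therefore not common to all genes that moved.

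Genes that make and clear collagen were counted from 4 lists. Of all genes tested, 5.87% were called higher and 4.45% lower against naive, and 1.59% and 1.7% with anti-SIRPa. Of 20 genes for folding, modification and secretion, 9 rose and none fell in control-antibody arthritis, and 5 fell with anti-SIRPa. Serpinh1, the collagen chaperone of the endoplasmic reticulum, was at 109 ± 23.8 CPM in naive, 461 ± 236 in control and 149 ± 14 in anti-SIRPa joints (mean ± SD, n = 4). P4ha3, a prolyl hydroxylase subunit, rose by 2.63 ± 0.52 on the log2 scale and Colgalt1, a collagen galactosyltransferase, by 0.63 ± 0.14. With anti-SIRPa the smallest p values belonged to P3h3 (-0.99 ± 0.22), the lysyl hydroxylase Plod2 (-1.58 ± 0.34) and Serpinh1 (-1.62 ± 0.38).

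Of 12 genes for propeptide removal and crosslinking, 3 rose and 1 fell (5.87% and 4.45% of all genes). Then 2 fell and 1 rose with anti-SIRPa (1.7% and 1.59% of all genes). The gene that fell was Pcolce2, an enhancer of procollagen processing, at 74.8 ± 2.6 CPM in naive, 36.2 ± 8.39 in control and 81.3 ± 15.6 in anti-SIRPa joints, which is the course of Col10a1 rather than of Col1a1. The crosslinking enzymes Lox and Loxl3 rose by 1.66 ± 0.38 and 1.98 ± 0.41 and fell with anti-SIRPa by 1.65 ± 0.38 and 1.79 ± 0.41. Of 7 tested genes of collagen cleavage and uptake, 3 rose and the same 3 fell with anti-SIRPa: Mmp2, Mmp14 and the collagenase Mmp13, whose log2 fold changes were 2.84 ± 0.76 and -3.56 ± 0.79. None of 8 tested collagen receptor genes passed, and the smallest p value against naive belonged to Itga10, at -0.53 ± 0.19 (edgeR adjusted p = 0.0933). Beside these, 7 of 8 macrophage markers rose in control-antibody arthritis and none passed with anti-SIRPa, while of 10 fibroblast markers Pdpn and Lum rose and Pdpn fell with anti-SIRPa. Their part in the collagen levels was not tested.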

How the data were processed

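RNA of 12 mouse paw joints was sequenced; the labels' protocols name a kit for total RNA that marks strand. The authors deposited whole-number read counts per gene with no normalization, per the deposited table, and the submitters' processing notes name build GRCm38. The aligner, the counter and its strand handling were not given in the sources used here. Sample files and series table were identical for all 12 libraries. Of 52636 identifiers, 52489 were found in GENCODE M21, from which symbols and coordinates were taken. Promoters came from RefSeq.

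The fit used edgeR 4.0.16 (R 4.3.3): filterByExpr by group (16674 genes), TMM scaling (factors 0.837 to 1.14), and a robust quasi-likelihood model with a coefficient for each group over all 12 libraries; biological variation between mice came to a coefficient of 0.334. P-values were adjusted by Benjamini-Hochberg over all genes tested, with a threshold of 0.05. SE is the log2 fold change divided by the root of F. The test was also run on simulated counts, and the outcome is not given here. Alternatives were DESeq2 1.42.0, limma-voom (limma 3.58.1), other scalings and filters, a fit of 2 groups, the replicate block, and leaving out mice. No batch is named in the labels. No pair of libraries of 1 group agreed within sampling noise (lowest chi-square per gene 8.76).

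The members and lists were chosen with earlier results of these data known. Genes described with every library's value passed in a comparison or were among the 4 of their class with the highest mean count; of each pathway list at most the 3 smallest p values per comparison are named. Each listed marker set was checked. Of all genes tested, 5.87% were called higher and 4.45% lower against naive, and 1.59% and 1.7% with anti-SIRPa. Sets not printed in the text moved as follows. Against naive and then with anti-SIRPa, higher and lower calls were 0 and 0, then 0 and 0 of 6 for tenocyte; 0 and 1, then 1 and 0 of 8 for endothelium; 0 and 2, then 2 and 0 of 8 for pericyte; 0 and 1, then 0 and 0 of 10 for muscle; 0 and 0, then 0 and 0 of 10 for epidermis; 3 and 0, then 0 and 1 of 6 for neutrophil; 0 and 0, then 1 and 0 of 7 for Schwann cell; 0 and 0, then 1 and 0 of 6 for erythroid markers.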

Additional observations from a re-analysis of the deposited data

Results flagged for a closer look

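In each of the 129 groups of 4 mice (43 genes in 3 groups), the highest or lowest mouse was compared with the rest, on the log scale with 0.1 CPM added. A mouse whose gap to its neighbour as a part of the group's range exceeded Dixon's 95% critical value was noted; chance gives about 1 in 20 groups, and 8 were found. Naive 4 was the far mouse in 4 of them: Col17a1 stood at 0.0766 CPM (187 to 461 in the other naive mice), Col4a6 at 0.843 CPM (6.46 to 7.79), Col2a1 at 8.81 CPM (17.9 to 19.3) and Col20a1 at 13 CPM (8.22 to 8.57). Control 1 was the far mouse in 2: Col8a2 stood at 12.9 CPM (47.9 to 61.7) and Col14a1 at 61 CPM (166 to 197). In the remaining 2, Col5a2 stood at 432 CPM in naive 3 (298 to 302) and Col1a2 at 2812 CPM in anti-SIRPa 4 (1949 to 2057).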

How the results depend on the processing

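With 4 mice a group and control 1 apart, most calls lay close to the threshold. Against naive, 12 collagens were higher and 3 lower. These counts became 5 higher without a filter, 19 higher with DESeq2, 0 and 1 with only the 2 groups compared, 0 and 0 without control 2 and control 4, and 0 and 1 without naive 4 and anti-SIRPa 2. Leaving out 1 mouse gave 2 to 23 higher and 1 to 4 lower. With anti-SIRPa, 1 was higher and 5 lower. These became 2 and 2 without a filter, 4 and 17 with DESeq2, 3 lower with limma-voom, 0 and 0 with only the 2 groups, without control 2 and control 4, and without naive 4 and anti-SIRPa 2. Leaving out 1 mouse gave 0 to 4 higher and 0 to 22 lower. Between anti-SIRPa and naive joints DESeq2 called 1 higher and every other setting 0, each mouse left out included. Apart from DESeq2 and the fits without 1 mouse, the calls over all genes in these settings are not given here. A fall in collagen calls there cannot be set beside the whole table. Fewer libraries did not always give fewer calls. Without control 1, 4694 of all genes were called against naive, and 1721 with all mice. The cause of the shifts was not tested. Other size factors, upper-quartile scaling, TMM without the collagens and a filter of 1 CPM in 4 libraries kept all 15 and all 6 calls. Over 23 settings, the called genes kept their call 194 times and missed the threshold 151 times against naive, and 60 and 78 times with anti-SIRPa; none changed sign.

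Replicate numbers are shared by the groups, and the labels do not say whether they pair the mice. Over 12 same-numbered pairs the correlation of deviations ran from -0.8 to 0.207. Naive 4 and anti-SIRPa 2, with different numbers, reached 0.766. High values thus also arose between different numbers, and these correlations cannot decide whether mice were paired. With the replicate block, 5 collagens were higher and 1 lower against naive, and 0 and 0 were called with anti-SIRPa. The calls over all genes with this block are not given here.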
